A study of Mus musculus with 12 samples.

Results

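The genes described here were 8 members of the TNF superfamily in bone marrow-derived mast cells (BMMCs). They were the ligands Tnf, Tnfsf8, Tnfsf9 and Tnfsf14 and the receptors Tnfrsf1a, Tnfrsf1b, Tnfrsf9 and Tnfrsf11b. Members were chosen by gene symbol, with earlier results of these data known. All 8 were found among the 16234 genes of the count table. A filter on low counts left 12208 genes for testing, with 7 of the 8 members among them and Tnfrsf1a outside. RNA-seq of total RNA gave 12 libraries, 2 for each genotype label in each state. The labels were WT, HZ (heterozygous) and KO for Elk4, which encodes a transcription factor of the ternary complex subfamily of Ets proteins. The mice were conventional Elk4 knockouts on a C57BL/6N background and littermates, 6 to 12 weeks old and of both sexes. Marrow cells had been cultured for 4 to 8 weeks with IL-3 and stem cell factor, and over 80% of the cells carried CD117 and FcεRI. Stimulated cells had been left overnight with 0.5 µg/ml anti-DNP IgE and then received 100 ng/ml DNP-HSA, the antigen that crosslinks the receptor-bound IgE, for 1 h. Whether unstimulated cells had also received IgE was not given in the sources used here.

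TNF superfamily ligands are mostly trimeric membrane proteins, and some of them, TNF included, are also cut from the membrane by the protease ADAM17. Their receptors gather TRAF adaptors, and a few carry a death domain, so that ligand binding leads to NF-kappa B and MAP kinase signalling or to cell death. Mast cells are known as a source of TNF, both stored in granules and newly made after IgE receptor crosslinking. TNF binds TNFR1 (Tnfrsf1a) and TNFR2 (Tnfrsf1b). CD30 ligand (Tnfsf8) binds CD30, CD137 ligand (Tnfsf9) binds CD137 (Tnfrsf9), and LIGHT (Tnfsf14) binds HVEM and the lymphotoxin beta receptor. Osteoprotegerin (Tnfrsf11b) is a secreted decoy receptor for RANK ligand and TRAIL.

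Library totals ran from 29697958 to 35531667 counts. Elk4, the targeted gene, was read in every library. Unstimulated, WT libraries had 2426 and 2740 counts of it, HZ libraries 3238 and 2837 and KO libraries 2613 and 2253. Stimulated, WT libraries had 2322 and 1995, HZ libraries 2139 and 1883 and KO libraries 1867 and 1971. The KO difference from WT was -0.19 on the log2 scale in unstimulated cells (edgeR adjusted p = 0.00872) and -0.10 in stimulated cells (edgeR adjusted p = 0.208). Elk4 counts therefore did not follow the genotype labels. Counts summed over the gene do not show which exons were read, and the deleted part was not given in the sources used here. WT, HZ and KO below are the labels of the libraries, and every direction drawn between genotypes rests on those labels. All 10 mast cell markers, among them Kit, Fcer1a, Ms4a2 and Cpa3, were tested, and their summed level was 46600 to 57300 CPM in the 12 libraries, mostly from Cpa3, Cma1 and Tpsb2. Single markers differed between genotypes. Hdc, the gene of the enzyme that makes histamine, was at 126 CPM in unstimulated WT, 109 in HZ and 17.0 in KO (KO against WT log2 -2.89, edgeR adjusted p = 2.08e-40) and was also lower in stimulated KO (log2 -1.88, edgeR adjusted p = 2.23e-38). Mcpt4, a mast cell protease gene, was higher in unstimulated HZ than in WT (log2 1.49, edgeR adjusted p = 2.86e-21). The 7 macrophage or monocyte markers summed to 36.3 to 74.8 CPM, mostly Cd68, and Mrc1 was at 0 in 5 of the 6 groups. The macrophage sum was lowest in unstimulated HZ libraries (36.3 to 37.8 CPM) and highest in stimulated HZ and KO libraries (67.2 to 74.8 CPM). Markers of neutrophils, of T, NK or B cells, of dendritic cells and of stromal cells summed to at most 0.313 CPM in any library. The basophil list gave 465 to 674 CPM, nearly all from Cd200r3, which mast cells also express. The part of other cells in the values below was not tested. In these bulk samples, fewer expressing cells and less RNA per cell cannot be told apart.

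Sequence upstream of the start site is shown for the members whose levels moved most with stimulation or genotype and that RefSeq's table of promoters holds (GRCm38.p6). Of the 8 members, 6 were in it, with 7 promoters. Each run is the 250 bases before an annotated start, 5′ to 3′ on the gene's strand. Capitals mark every match, on either strand, to the NF-kappa B motif, AP-1 (TGANTCA), the cyclic AMP response element (TGACGTCA), the ETS core (CCGGAA), the CArG box or the TATA box (TATAAA).
Tnf, chr17:35202008-35202257, minus strand: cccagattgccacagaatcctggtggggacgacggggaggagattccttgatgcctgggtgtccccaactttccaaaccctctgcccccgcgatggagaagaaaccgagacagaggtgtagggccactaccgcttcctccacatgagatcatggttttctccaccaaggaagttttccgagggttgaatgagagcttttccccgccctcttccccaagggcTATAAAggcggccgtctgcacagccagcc
Tnfsf8, chr4:63861285-63861534, minus strand: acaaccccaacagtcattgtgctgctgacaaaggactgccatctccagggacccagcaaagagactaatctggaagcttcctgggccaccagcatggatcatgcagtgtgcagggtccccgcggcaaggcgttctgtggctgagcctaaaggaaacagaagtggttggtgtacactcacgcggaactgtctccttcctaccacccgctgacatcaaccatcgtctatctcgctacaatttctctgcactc
Tnfsf14, chr17:57194182-57194431, minus strand: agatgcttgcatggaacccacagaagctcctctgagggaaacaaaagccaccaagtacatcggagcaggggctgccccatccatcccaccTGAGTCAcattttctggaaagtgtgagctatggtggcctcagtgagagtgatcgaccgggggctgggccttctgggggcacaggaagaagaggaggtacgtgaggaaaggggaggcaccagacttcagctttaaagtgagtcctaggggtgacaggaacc
Tnfrsf1b, chr4:145246871-145247120, minus strand: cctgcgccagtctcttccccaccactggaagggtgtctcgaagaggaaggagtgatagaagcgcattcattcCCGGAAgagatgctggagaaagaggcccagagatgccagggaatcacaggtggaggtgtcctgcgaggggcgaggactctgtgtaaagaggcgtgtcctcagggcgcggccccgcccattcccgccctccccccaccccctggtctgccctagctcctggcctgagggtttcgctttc
Tnfrsf9, chr4:150927749-150927998, plus strand: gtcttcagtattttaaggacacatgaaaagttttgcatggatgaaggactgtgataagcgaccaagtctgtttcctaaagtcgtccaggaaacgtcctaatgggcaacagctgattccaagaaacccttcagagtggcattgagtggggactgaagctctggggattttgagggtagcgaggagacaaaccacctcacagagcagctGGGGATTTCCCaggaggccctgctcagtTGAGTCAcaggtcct

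Tnf held a TATA box 29 to 24 bases before its start, which 12.4% of the 32841 promoters in the table also held somewhere in the window. Tnfsf14 held an AP-1 match, as 6.75% of promoters did, and Tnfsf8 held none of the marked motifs. The second of the start sites listed for Tnfrsf9 had an AP-1 match and overlapping NF-kappa B matches, a motif found in 7.25% of promoters, while the window of its first start site, not shown, held none of the marked motifs. An ETS core, the short motif of the protein family that includes ELK4, was present in Tnfrsf1b and in Tnfrsf1a and in 12% of promoters. The CArG box and the cyclic AMP element were in no promoter of a member, against 1.47% and 1.55% of promoters. The NFAT core GGAAA, not capitalised because it is common, was in 5 of the 7 member promoters and in 55.6% of promoters. A match describes letters only, and these windows leave out enhancers and the rest of each gene.

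Tnf was a low-level message in unstimulated cells and among the most abundant ones after 1 h of stimulation. In WT it had 211 and 236 counts unstimulated and 128432 and 132579 stimulated. In HZ the counts went from 69 and 97 to 139751 and 132016, and in KO from 160 and 183 to 93566 and 98800. No stimulated library came near an unstimulated one. Tnf took 0.303 to 0.410% of all counts in the stimulated libraries. Per length, its mean level in WT was 4.44 ± 0.20 FPKM (SD, n = 2) unstimulated and 2398 ± 48 FPKM (SD, n = 2) stimulated, and its rank by FPKM among the 16234 genes moved from 7647 to 16. The rank moved from 9235 to 14 in HZ and from 8251 to 18 in KO. In CPM, counts scaled to the TMM-adjusted library size, the response was 668-fold in WT (log2 9.38, SE 0.05, edgeR adjusted p = 3.91e-64), 1776-fold in HZ (log2 10.79, SE 0.05, edgeR adjusted p = 3.23e-65) and 722-fold in KO (log2 9.50, SE 0.05, edgeR adjusted p = 2.06e-64). These SE were derived from the F statistic and are too small for changes of this size. With a library left out, the response was log2 9.35 to 9.44 in WT, 10.53 to 11.1 in HZ and 9.36 to 9.64 in KO.

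**Figure D1:**
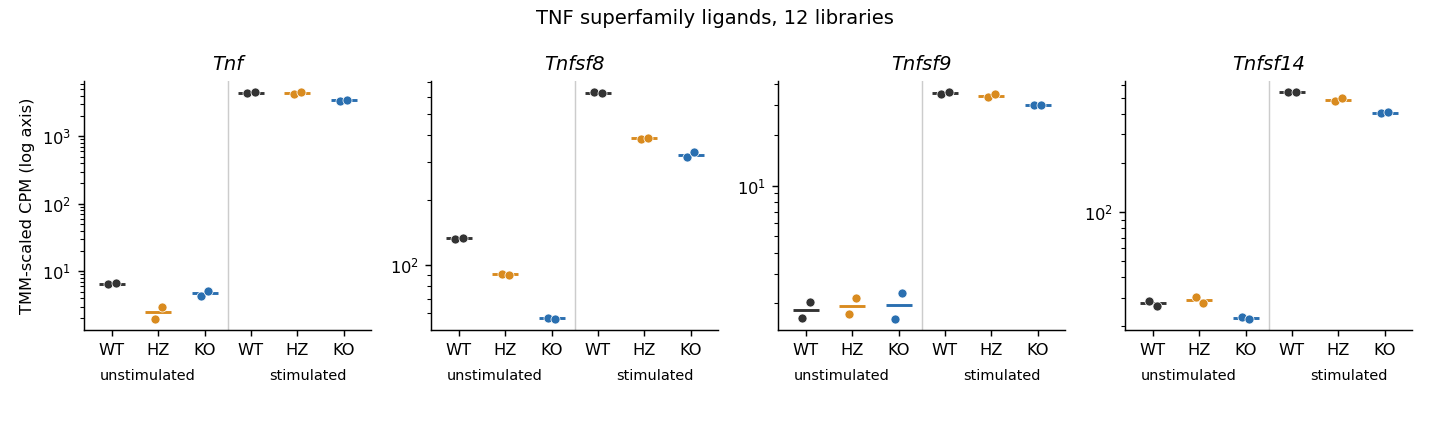
Level of each ligand gene in the 12 libraries, in TMM-scaled CPM on a log axis, with 1 point per library and a line at the mean of the 2 libraries of a group. In each panel all 6 stimulated libraries lie above all 6 unstimulated ones, and Tnfsf8 steps down from WT to HZ to KO in both states.

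Tnfsf8, CD30 ligand, was the ligand with the highest level per length before stimulation, at 38.6 FPKM in WT. Unstimulated WT libraries stood at 132 and 134 CPM, HZ libraries at 90.8 and 90.4 and KO libraries at 56.7 and 56.5. After stimulation the WT libraries stood at 630 and 627 CPM, the HZ libraries at 385 and 388 and the KO libraries at 316 and 333. The 6 groups did not overlap, in the order stimulated WT, HZ, KO and then unstimulated WT, HZ, KO. The rise was 4.73-fold in WT (log2 2.24, SE 0.03, edgeR adjusted p = 4.88e-44), 4.27-fold in HZ (log2 2.09, SE 0.04, edgeR adjusted p = 3.24e-42) and 5.73-fold in KO (log2 2.52, SE 0.04, edgeR adjusted p = 9.30e-45).

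Tnfsf14 (LIGHT) without stimulation was at 28.8 and 26.6 CPM in the WT libraries, at 30.3 and 27.8 in the HZ ones and at 22.7 and 22.3 in the KO ones. With stimulation it stood at 542 CPM in both WT libraries, at 477 and 499 in the HZ ones and at 406 and 409 in the KO ones. WT and HZ overlapped before stimulation, and the 3 genotypes did not overlap after it. Its rise was 19.6-fold in WT (log2 4.29, SE 0.04, edgeR adjusted p = 1.02e-51), 16.8-fold in HZ (log2 4.07, SE 0.04, edgeR adjusted p = 6.30e-51) and 18.1-fold in KO (log2 4.18, SE 0.04, edgeR adjusted p = 7.09e-51).

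Tnfsf9 (CD137 ligand) rose from a lower level. Unstimulated WT libraries had 54 and 71 counts, HZ libraries 60 and 71 and KO libraries 61 and 82, so the genotypes overlapped. Stimulated WT libraries had 1041 and 1064 counts, HZ libraries 1097 and 1034 and KO libraries 842 and 860, with KO below the others. The fold changes were 19.3 in WT (log2 4.27, SE 0.14, edgeR adjusted p = 4.25e-30), 17.6 in HZ (log2 4.14, SE 0.14, edgeR adjusted p = 8.17e-30) and 15.3 in KO (log2 3.94, SE 0.14, edgeR adjusted p = 6.59e-29). Per length, the stimulated WT levels ranked Tnf (2398 FPKM), Tnfsf14 (262 FPKM), Tnfsf8 (147 FPKM) and Tnfsf9 (21.3 FPKM). Before stimulation the order was Tnfsf8 (38.6 FPKM), Tnfsf14 (16.6 FPKM), Tnf (4.44 FPKM) and Tnfsf9 (1.36 FPKM).

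None of the 4 receptors exceeded 7.51 FPKM as a group mean. Tnfrsf1a, the TNF receptor with a death domain, was almost unread. Its unstimulated counts were 1 in each WT library, 0 in each HZ library, and 0 and 1 for KO. Its stimulated counts were 9 and 3 for WT, 1 and 2 for HZ and 2 in each KO library. A count of 0 in the unstimulated HZ libraries allows up to 3 counts, or 0.0864 and 0.0910 CPM, for counting error only. No test or fold change is given for it. Tnfrsf1b, the other TNF receptor, was the most abundant receptor of the 4 per length in each group. Its response was -0.30 on the log2 scale in WT (SE 0.12, edgeR adjusted p = 0.0326), 0.25 in HZ (SE 0.09, edgeR adjusted p = 0.0177) and -0.11 in KO (SE 0.09, edgeR adjusted p = 0.360), and none of these reached the 2-fold threshold.

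Tnfrsf9 (CD137) had few counts. Unstimulated WT libraries had 22 and 29, HZ libraries 17 and 12 and KO libraries 12 and 3. Stimulated WT libraries had 75 and 79, HZ libraries 20 and 33 and KO libraries 24 and 43, with WT above the rest. The gene rose 3.45-fold in WT (log2 1.79, SE 0.49, edgeR adjusted p = 0.00209) and 5.68-fold in KO (log2 2.51, SE 0.60, edgeR adjusted p = 0.000545). The KO value rested on single libraries, at log2 3.74 without unstimulated KO replicate 1 and 1.87 without unstimulated KO replicate 2, and passed in both. The change in HZ was 2.00-fold and did not pass (log2 1.00, SE 0.55, 95% interval -0.12 to 2.11, edgeR adjusted p = 0.112).

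Tnfrsf11b (osteoprotegerin) had 4 and 7 counts in unstimulated WT libraries, the lowest of its 6 groups, and 24 and 25 in stimulated ones. It rose 5.01-fold in WT (log2 2.33, SE 0.62, edgeR adjusted p = 0.00189). In HZ the counts were 61 and 26 unstimulated and 27 and 53 stimulated, so the states overlapped (log2 0.03, SE 0.45, edgeR adjusted p = 0.966). In KO they were 57 and 50 unstimulated and 51 and 68 stimulated (log2 0.52, SE 0.43, edgeR adjusted p = 0.365). On log2(FPKM + 1) in limma with no filter, the changes of Tnfrsf9 (0.56 in WT and 0.40 in KO) and Tnfrsf11b (0.24 in WT) fell short of 2-fold. Both genes had group means under 1 FPKM, a range in which that scale compresses fold changes.

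**Figure D2:**
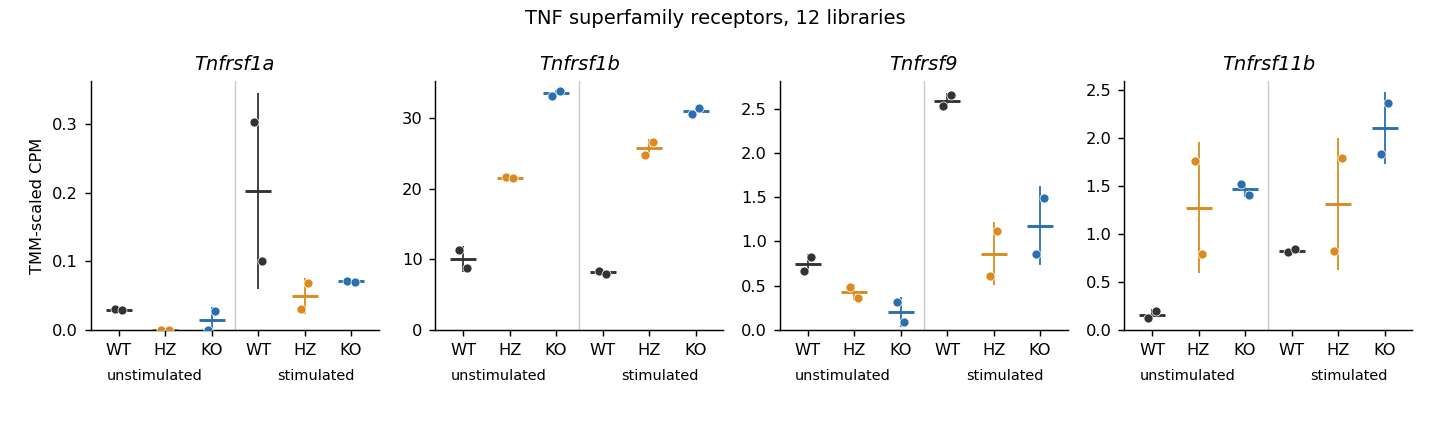
Level of each receptor gene in the 12 libraries, in TMM-scaled CPM on a linear axis from 0, with 1 point per library, a line at the group mean and a bar of 1 SD to each side (n = 2). Tnfrsf1b is separated by genotype in both states, with WT at 7.99 to 11.4 and KO at 30.7 to 33.9, and Tnfrsf1a reaches at most 0.303.

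In WT, 6 of the 7 tested members passed as higher after stimulation and 0 as lower, where 3.71% of all tested genes passed as higher and 3.06% as lower. Members were chosen with earlier results of these data known, so this count and those of HZ and KO are no test of the family. A gene passed at an edgeR adjusted p below 0.05 with at least a 2-fold change. In HZ, 4 of 7 passed as higher and 0 as lower, against 7.02% and 7.28% of all genes. In KO, 5 of 7 passed as higher and 0 as lower, against 3.73% and 2.88%. The 4 ligands passed in each of the 3 genotypes, and stayed so when any library was left out and under each scaling tried. Scaling by library totals in place of TMM moved the median log2 change of all genes by -0.31 in WT, -0.23 in HZ and -0.29 in KO. It moved the share of calls that were higher from 54.8% to 28.7% in WT, from 49.1% to 30.9% in HZ and from 56.4% to 32.9% in KO. The labels do not say whether the 2 replicates of a group came from separate cultures or mice, so these p-values measure the spread between these libraries, which may be technical.

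Genotype differences before stimulation address what the Elk4 genotype label goes with in resting cells. In KO against WT, 2 of 7 members were higher and 2 lower, where 2.64% of all genes passed as higher and 4.87% as lower. Tnfrsf1b had 11.4 and 8.75 CPM in WT and 33.3 and 33.9 in KO and was 3.34-fold higher in KO (log2 1.74, SE 0.10, edgeR adjusted p = 6.34e-20). Of the 5 macrophage or monocyte markers tested, 1 was called higher there and 0 lower. It was Lyz2, at 4.26 CPM in WT and 10.9 CPM in KO, while Cd68 (log2 0.11), Adgre1 (0.20), Cd14 (-0.38) and Csf1r (-3.59) did not pass, and their part in this difference was not tested. Tnfrsf11b was 8.90-fold higher in KO (log2 3.15, SE 0.58, edgeR adjusted p = 1.38e-05), against the 4 and 7 counts of WT. Tnfsf8 fell to 0.426 of the WT level (log2 -1.23, SE 0.04, edgeR adjusted p = 2.01e-30). Tnfrsf9 fell to 0.278 (log2 -1.85, SE 0.61, edgeR adjusted p = 0.0116), a call that was lost without WT replicate 2 (log2 -1.68, edgeR adjusted p = 0.0754) or without KO replicate 2 (log2 -1.21, edgeR adjusted p = 0.188). Without KO replicate 1 it was log2 -3.08 (edgeR adjusted p = 0.00560). Tnf (log2 -0.48, SE 0.09, edgeR adjusted p = 1.70e-05) and Tnfsf14 (log2 -0.30, SE 0.05, edgeR adjusted p = 1.02e-05) were lower by less than 2-fold. Tnfsf9 did not separate from WT (log2 0.10, 95% interval -0.30 to 0.49).

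In unstimulated HZ against WT, 2 of 7 members were higher and 1 lower, against 3.83% and 5.32% of all genes. Tnf was at 6.37 and 6.75 CPM in WT and at 1.99 and 2.94 in HZ, and fell to 0.374 of the WT level (log2 -1.42, SE 0.10, edgeR adjusted p = 2.46e-16). The macrophage sum was lowest in these HZ libraries through Cd68, at 20.5 CPM against 39.1 CPM in WT, whereas Lyz2 (10.2 against 4.26 CPM) and Adgre1 (5.85 against 3.54 CPM) had higher values in HZ, and their part was not tested. Tnfrsf11b was 7.75-fold higher in HZ (log2 2.96, SE 0.59, edgeR adjusted p = 3.79e-05), and by log2 2.26 without HZ replicate 1. On log2(FPKM + 1) in limma with no filter, the Tnfrsf11b differences from WT were 0.46 in HZ and 0.55 in KO, short of 2-fold. Tnfrsf1b was 2.15-fold higher (log2 1.11, SE 0.10, edgeR adjusted p = 6.39e-13), and without WT replicate 2 its difference of 0.92 was under the 2-fold threshold. Tnfsf8 was lower by 0.55 (SE 0.04, edgeR adjusted p = 6.06e-18), short of 2-fold. Between unstimulated KO and HZ no member passed, against 1.29% of all genes higher and 2.06% lower. DESeq2 and limma gave 0 members there too. Without the fold threshold, 5515 of all 12208 genes passed there in edgeR. By edgeR 4 members had an unadjusted p below 0.05, each by less than 2-fold. These were Tnf (log2 0.94, edgeR adjusted p = 8.67e-10), Tnfsf8 (log2 -0.68), Tnfrsf1b (log2 0.63) and Tnfsf14 (log2 -0.37). The Tnf difference passed 2-fold without HZ replicate 2 (log2 1.25) or without KO replicate 1 (log2 1.07).

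**Figure D3:**
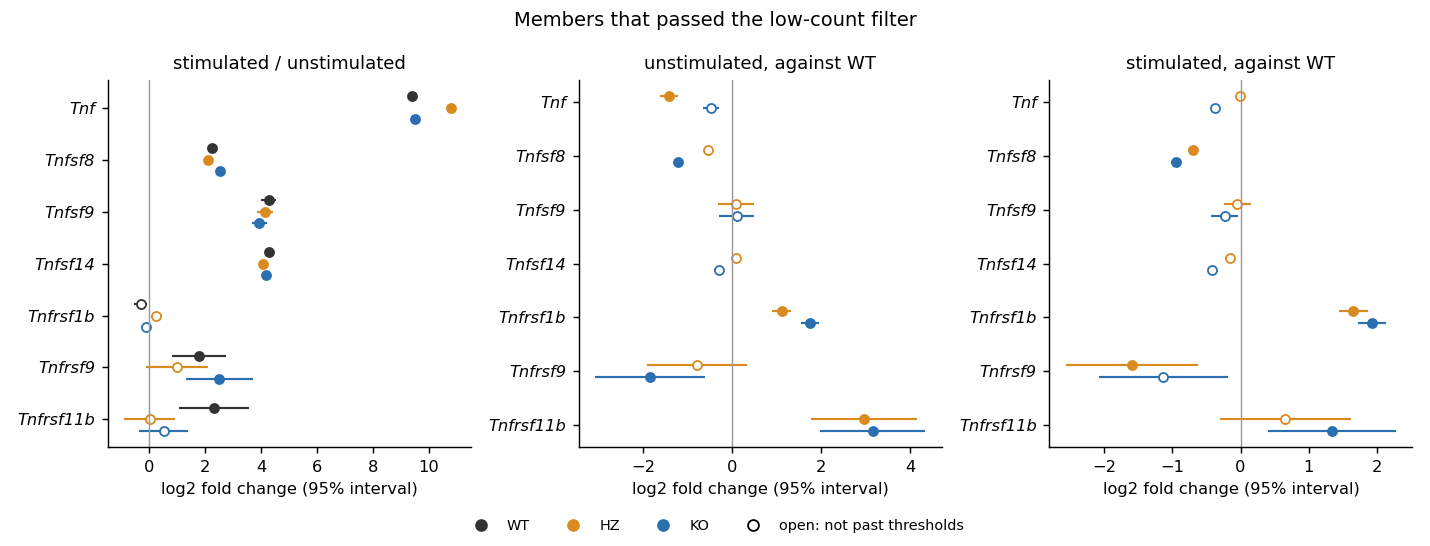
Log2 fold changes of the 7 tested members from the edgeR model, with 95% intervals, for stimulated over unstimulated cells in each genotype (left), for unstimulated HZ and KO over WT (middle) and for stimulated HZ and KO over WT (right). Filled points passed the thresholds. The intervals of Tnf in the left panel are too narrow, since their SE were derived from the F statistic. The ligands lie far to the right of 0 in the left panel, Tnfsf8 lies to the left of 0 and Tnfrsf1b to the right of it in the other panels.

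After stimulation, the comparison of genotypes used an edgeR adjusted p below 0.05 and fold limits of 1.5 upwards and 0.66 downwards. In KO against WT, 2 of 7 members were higher and 1 lower, where 5.44% of all genes passed as higher and 7.22% as lower. Tnfrsf1b was at 8.35 and 7.99 CPM in WT and 30.7 and 31.6 in KO, 3.81-fold higher (log2 1.93, SE 0.11, edgeR adjusted p = 1.74e-20). Of the 5 macrophage or monocyte markers tested, 2 were also higher in stimulated KO, Lyz2 at 8.37 against 4.61 CPM and Cd14 at 4.44 against 1.87 CPM. So was 1 of the 3 basophil markers, Mcpt8, at 10.4 against 5.41 CPM, and the part of these genes was not tested. Tnfrsf11b was 2.54-fold higher (log2 1.35, SE 0.47, edgeR adjusted p = 0.0177). That call was lost without WT replicate 1 (log2 1.32, edgeR adjusted p = 0.0792), without WT replicate 2 (log2 1.38, edgeR adjusted p = 0.0672) and without KO replicate 2 (log2 1.15, edgeR adjusted p = 0.127). Tnfsf8 fell to 0.516 of the WT level (log2 -0.95, SE 0.03, edgeR adjusted p = 1.03e-28).

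Stimulated Tnf was lower in KO than in WT by less than the fold threshold. WT libraries stood at 4324 and 4452 CPM, HZ libraries at 4258 and 4466 and KO libraries at 3363 and 3433, so both KO libraries were below the 4 others. The KO level was 0.774 of WT (log2 -0.37, SE 0.03, 95% interval -0.42 to -0.31, edgeR adjusted p = 7.06e-16) and 0.779 of HZ (log2 -0.36, SE 0.03, edgeR adjusted p = 6.85e-15). HZ and WT overlapped (log2 -0.01, 95% interval -0.06 to 0.05, edgeR adjusted p = 0.845). Tnfsf14 was 0.751 of WT in KO (log2 -0.41, SE 0.03, edgeR adjusted p = 2.45e-14), also short of the threshold. Tnfsf9 was at 0.850 of WT (log2 -0.23, SE 0.10, edgeR adjusted p = 0.0536), and Tnfrsf9 at 0.457 (log2 -1.13, SE 0.47, edgeR adjusted p = 0.0506). Tnfrsf9 passed under 4 of the alternatives, with adjusted p of 0.0430 in DESeq2 and 0.0112 in edgeR on the compared groups alone. It did not pass under the others, and with a library left out it was log2 -1.58 to -0.79.

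In stimulated HZ against WT, 1 of 7 members was higher and 2 lower, against 3.56% and 4.33% of all genes. Tnfrsf1b was 3.15-fold higher (log2 1.66, SE 0.11, edgeR adjusted p = 1.11e-17). Tnfsf8 fell to 0.615 of WT (log2 -0.70, SE 0.03, edgeR adjusted p = 2.35e-23) and Tnfrsf9 to 0.332 (log2 -1.59, SE 0.48, edgeR adjusted p = 0.00793). The Tnfrsf9 call was lost without HZ replicate 1 (log2 -1.21, edgeR adjusted p = 0.132). Between stimulated KO and HZ no member passed, against 1.81% of all genes higher and 3.51% lower. DESeq2 and limma gave 0 members as well. In edgeR 4 members had an unadjusted p below 0.05, Tnf, Tnfsf14 (log2 -0.26), Tnfsf8 (log2 -0.25) and Tnfrsf1b (log2 0.27), each within the fold limits. Without those limits, 3040 of all 12208 genes passed there.

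Whether a genotype label goes with a different response to stimulation was tested as an interaction, called at an edgeR adjusted p below 0.05 with no fold threshold. For KO against WT, 1 of 7 members had a larger log2 response and 0 a smaller one, where 5.44% of all genes passed as larger and 3.83% as smaller. Those were 1132 genes in all, and 698 without unstimulated KO replicate 2. The member was Tnfsf8, with a difference of 0.28 (SE 0.05, edgeR adjusted p = 7.17e-05), so that its response was larger in KO from a lower starting level. For Tnf the difference was 0.11 (95% interval -0.07 to 0.30, edgeR adjusted p = 0.587). The Tnfrsf11b difference of -1.81 had a wide interval of -3.36 to -0.26 (edgeR adjusted p = 0.148).

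For HZ against WT, 2 of 7 members had a larger response and 3 a smaller one, against 19.9% and 18.6% of all genes. Scaling by library totals moved the share of these calls that were larger from 51.6% to 64.4%. Tnf differed by 1.41 (SE 0.11, edgeR adjusted p = 2.79e-15), with stimulated levels that overlapped between HZ and WT and unstimulated levels that did not. Tnfrsf1b differed by 0.55 (SE 0.15, edgeR adjusted p = 0.00258), and by 0.35 (edgeR adjusted p = 0.0895) without unstimulated WT replicate 1. Tnfrsf11b differed by -2.30 (SE 0.78, edgeR adjusted p = 0.0157). Its call was lost without unstimulated WT replicate 1 (-1.996, edgeR adjusted p = 0.0742), unstimulated HZ replicate 1 (-1.61, edgeR adjusted p = 0.150) or stimulated HZ replicate 1 (-1.84, edgeR adjusted p = 0.0741). Tnfsf14 differed by -0.23 (SE 0.06, edgeR adjusted p = 0.00305), with -0.16 (edgeR adjusted p = 0.0699) without unstimulated HZ replicate 1. Tnfsf8 differed by -0.15 (SE 0.05, edgeR adjusted p = 0.0112). Under library totals the Tnfsf8 (-0.07) and Tnfsf14 (-0.15) differences no longer passed, nor did they in limma under any of its 3 settings. KO and HZ were compared with the same WT libraries, so these interactions share their controls.

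The genes most like each member were found by the root mean square difference between centred log2 CPM profiles over the 12 libraries, a description with no test in which all genes share library scaling. Tnf was nearest to Ptgs2, which encodes cyclooxygenase-2 (0.549), and to Csf2, the gene of the cytokine GM-CSF (0.781). Tnfsf9 and Tnfsf14 were each other's nearest gene, at 0.217, and both had Gpr171 next (0.320 and 0.278). Tnfsf8 was nearest to Ripk2, the kinase that acts below NOD receptors (0.202), then Plau, urokinase (0.297). Tnfrsf1b was nearest to Rcsd1 (0.158) and to the adhesion molecule gene Icam2 (0.174). For the low-count receptors the nearest gene was Map1b for Tnfrsf9 (0.461) and Fhdc1 for Tnfrsf11b (0.459). Such distances grow with the spread of a profile, so those of different members cannot be ranked against each other. The SD of log2 CPM over the 12 libraries was 5.18 for Tnf, 1.19 for Tnfrsf9 and 1.15 for Tnfrsf11b.

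No other tested ligand or receptor of the family passed in the WT response. Since the members were chosen with earlier results known, this difference from them is no test. Of 14 other ligands listed, 11 were in the table and 6 tested, and of 25 other receptors, 20 were in the table and 15 tested. The counts that passed in edgeR were 0 of 6 and 0 of 15, with 4 and 8 at an unadjusted p below 0.05, and the median log2 changes were -0.14 and -0.02 beside -0.01 over all genes. Of all 12208 tested genes, 3.71% passed as higher and 3.06% as lower, and 5530 had an edgeR adjusted p below 0.05. An example is Tnfsf4, the ligand of OX40 (log2 0.67, SE 0.15, edgeR adjusted p = 0.000193), which stayed under 2-fold. In KO, Tnfsf4 rose 2.33-fold (log2 1.22, SE 0.20, edgeR adjusted p = 1.06e-06), and 0 of the 15 receptors passed, with 7 at an unadjusted p below 0.05. In that response 3.73% of all genes passed as higher and 2.88% as lower, and 4983 had an edgeR adjusted p below 0.05. In HZ, 1 receptor was higher, Tnfrsf23, and 5 were lower, namely Tnfrsf26, Ngfr, Tnfrsf4, Fas and Tnfrsf14, against 7.02% and 7.28% of all genes. The Tnfrsf23 (0.0728 to 0.428 CPM) and Tnfrsf26 (1.15 to 0.161 CPM) calls rest on few counts. Tnfrsf14 encodes HVEM, a receptor of LIGHT, at 12.6 CPM before and 5.98 CPM after stimulation in HZ (log2 -1.07, edgeR adjusted p = 2.53e-09). Short of 2-fold, Tnfrsf14 was lower after stimulation in WT (log2 -0.71, edgeR adjusted p = 1.33e-05) and KO (log2 -0.53, edgeR adjusted p = 0.000881) as well. The ligand gene Ltb was also lower in HZ (log2 -1.22, edgeR adjusted p = 0.0483). That call also rests on few counts, with 1.29 ± 0.33 CPM before and 0.543 ± 0.481 CPM after stimulation (SD, n = 2 each).

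**Figure D4:**
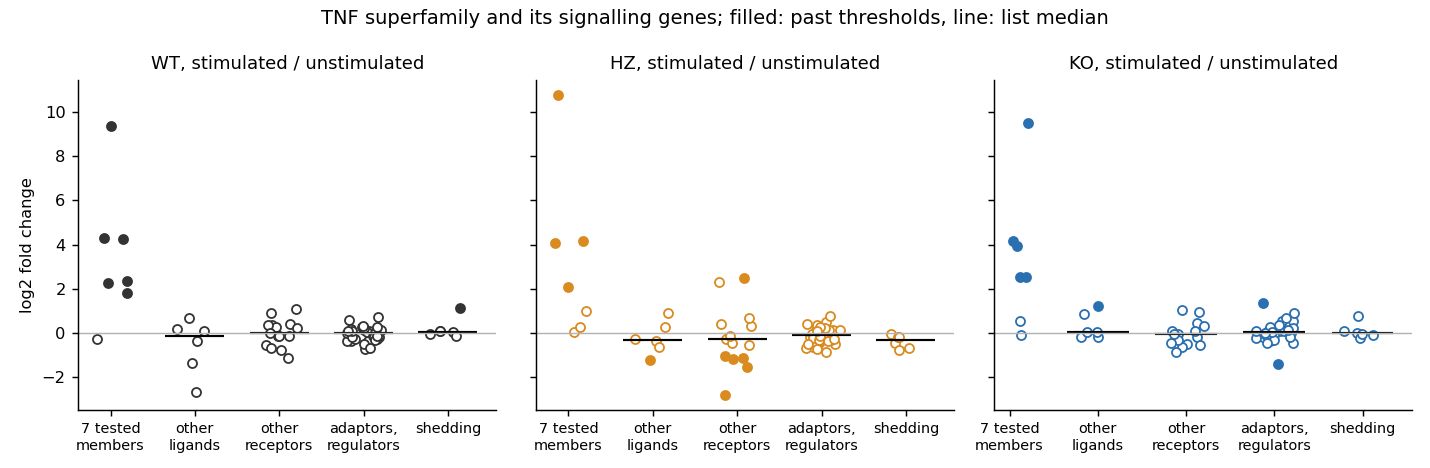
Log2 fold change of stimulated over unstimulated cells in WT, HZ and KO for the 7 tested members and for 4 lists of other ligands (6 tested), other receptors (15), adaptors and regulators (32) and genes of shedding (6). Each point is a gene, filled points passed the thresholds, and lines mark the medians of the lists. In WT 6 of the 7 members and 1 gene of the other lists, Rhbdf2, are filled.

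By genotype, Tnfsf4 was lower in KO than in WT, at 2.29 against 11.4 CPM unstimulated (log2 -2.31, edgeR adjusted p = 3.10e-15) and 5.36 against 18.2 CPM stimulated (log2 -1.76, edgeR adjusted p = 9.77e-13). It was the only other ligand of 6 to pass between unstimulated KO and WT. Of the 15 receptors, 2 were higher and 2 lower there, against 2.64% and 4.87% of all genes. Ngfr (log2 1.32) and Tnfrsf12a, the receptor of TWEAK (log2 1.72), were higher, while Tnfrsf10b, the mouse TRAIL receptor (log2 -1.18), and Eda2r (log2 -1.98) were lower. In stimulated cells Ltb, the gene of lymphotoxin beta, was higher in KO (log2 2.39, edgeR adjusted p = 0.00155). Its level was low, and its KO libraries lay far apart, at 1.43 ± 1.03 against 0.269 ± 0.047 CPM (SD, n = 2 each). There 2 of the 15 receptors were higher and 4 lower, against 5.44% and 7.22% of all genes. Ngfr (log2 1.39) and Tnfrsf12a (log2 1.11) were higher, and Eda2r (log2 -1.89), Fas (log2 -1.22), Tnfrsf10b (log2 -1.19) and Tnfrsf21 (log2 -0.83) lower. All of these receptors had an edgeR adjusted p of at most 0.00205.

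The 32 adaptors and regulators were all tested, and 0 passed in the WT response in edgeR, with 20 at an unadjusted p below 0.05 (median log2 change -0.01). Of all 12208 genes, 3.71% passed as higher and 3.06% as lower there, and 5530 had an edgeR adjusted p below 0.05. In KO, Tnfaip3 rose 2.55-fold (log2 1.35, SE 0.05, edgeR adjusted p = 1.12e-27) and Traf4 was lower (log2 -1.41, edgeR adjusted p = 0.0365) at under 1 CPM. In that response 3.73% of all genes passed as higher and 2.88% as lower. Tnfaip3 encodes a ubiquitin-editing enzyme that restrains NF-kappa B signalling below TNF receptors. In WT its level was 57.6 ± 7.1 CPM (SD, n = 2) unstimulated and 36.1 ± 2.6 CPM (SD, n = 2) stimulated, a change of -0.67 short of 2-fold. In KO it was 97.5 ± 0.7 CPM unstimulated and 249 ± 2 CPM stimulated (SD, n = 2 each). Stimulated KO was 6.90-fold above stimulated WT (log2 2.79, SE 0.06, edgeR adjusted p = 1.10e-37) and HZ 3.51-fold above WT (log2 1.81, SE 0.06, edgeR adjusted p = 1.48e-29). Its interaction was 2.03 for KO (SE 0.08, edgeR adjusted p = 1.27e-25). Of the other 31 genes, Fadd (log2 0.62) was higher and Traf5 (log2 -0.87) lower in stimulated KO than in WT, against 5.44% and 7.22% of all genes. The KO interaction also passed for Traf1 (0.77) and Birc3 (0.40), both larger in KO, as were 5.44% of all genes by that test.

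The shedding list held the gene of ADAM17, which releases TNF and TNFR2 from the membrane, and those of its relative ADAM10, its partners and an inhibitor, 6 genes in all. Adam17 itself was at 60.2 to 86.7 CPM as group means and passed in none of the comparisons other than the HZ interaction (-0.40, edgeR adjusted p = 2.51e-05). All 6 genes of the list, and 9 of the 10 mast cell markers, had a smaller response in HZ by that test, which called 18.6% of all genes so. Rhbdf2 encodes iRhom2, which carries ADAM17 to the cell surface. In WT it rose 2.19-fold, from 74.1 ± 1.7 CPM to 162 ± 1 CPM (SD, n = 2; log2 1.13, SE 0.05, edgeR adjusted p = 5.38e-25). Stimulated KO, at 67.5 ± 1.6 CPM (SD, n = 2), was 0.417 of WT (log2 -1.26, SE 0.05, edgeR adjusted p = 4.48e-26) and stimulated HZ was 0.400 (log2 -1.32, SE 0.05, edgeR adjusted p = 1.22e-26). Unstimulated KO was already lower, at 40.1 CPM (log2 -0.89 against WT, edgeR adjusted p = 2.21e-19), while unstimulated HZ was at 75.1 CPM. With stimulation Rhbdf2 changed by log2 0.75 in KO and by -0.21 in HZ. Its response differed from WT by -0.38 in KO (edgeR adjusted p = 0.000220) and -1.34 in HZ (edgeR adjusted p = 5.22e-21). Timp3, an inhibitor of ADAM17, was higher in KO than in WT by 1.40 unstimulated (edgeR adjusted p = 3.10e-17) and 1.27 stimulated (edgeR adjusted p = 2.29e-15).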

How the data were processed

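Total RNA of 12 BMMC libraries, 2 in each of 6 groups, was sequenced on an Illumina HiSeq instrument. The authors deposited raw read counts per gene and a second table in FPKM. The submitters' processing notes name fastp, HISAT2, HTSeq and the GRCm39 build, with no versions. Replicates had not been pooled, and every column was used.

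Tests used edgeR 4.0.16 in R 4.3.3. Of 16234 genes, filterByExpr kept 12208. TMM factors ran from 0.902 to 1.12, so fold changes are relative to the bulk of genes, and CPM values are scaled counts. The quasi-likelihood model had a mean per group, and its two-sided p-values received a Benjamini-Hochberg adjustment across these genes. Genes passed at an adjusted p below 0.05 with a log2 fold change of at least 1, or, between stimulated genotypes, with a fold change not inside 0.66 to 1.5. Interactions had no fold threshold. On simulated counts edgeR recovered 195 of 200 genes changed by 1.5 on the log2 scale in the WT response, with 0 of the unchanged genes called. The changed genes were drawn above a floor of counts, equally up and down, and the others had no true difference. Counts were drawn with the spread that edgeR had fitted to these data. The simulation therefore does not test that spread, the choice of scaling, genes below that floor or small real differences.

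Alternatives were DESeq2 1.42.0, limma 3.58.1 on log2(FPKM + 1) and log2(FPKM + 0.1), other scalings, no filter, no fold threshold, the groups compared alone, a replicate block, and each library left out. FPKM give no depth, and precision rests on the counts. Replicates of a group differed by 2.94 to 5.16 times the sampling noise (chi-square per degree of freedom), so none was treated as a repeat deposit of the same library, and whether they were biological or technical replicates is not stated. Members and lists were chosen with earlier results of these data known. Named genes were the members, Elk4, list genes that passed in a comparison described (at most 6 for each list and comparison) and the 3 nearest genes of each member. None of the 5 sex-linked genes listed was found among the genes counted, so sex was not checked from them. Promoter motifs were searched on both strands in 250 bases before each start.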

Additional observations from a re-analysis of the deposited data

Results flagged for a closer look

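By the interaction test, 6 responses to stimulation differed from that of WT. For KO against WT this held for Tnfsf8, whose log2 response was larger by 0.28 (SE 0.05, edgeR adjusted p = 7.17e-05). For HZ against WT it held for Tnf, with a larger response by 1.41 (SE 0.11, edgeR adjusted p = 2.79e-15), and for Tnfrsf1b, by 0.55 (SE 0.15, edgeR adjusted p = 0.00258). The HZ response was smaller for Tnfrsf11b (-2.30, SE 0.78, edgeR adjusted p = 0.0157), Tnfsf14 (-0.23, SE 0.06, edgeR adjusted p = 0.00305) and Tnfsf8 (-0.15, SE 0.05, edgeR adjusted p = 0.0112). In HZ against WT the same test passed for 19.9% of all genes as larger and 18.6% as smaller. The HZ calls of Tnfsf14 and Tnfsf8 were lost under library totals and in limma, and that of Tnfrsf11b in limma without the filter. How Tnfrsf1b, Tnfrsf11b and Tnfsf14 moved with a library left out is given above.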

How the results depend on the processing

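Of 1111 recomputed values of members, 1036 kept their direction and their side of the thresholds, 31 no longer passed, 22 newly passed and 22 changed sign. Without a fold threshold, 4 members passed between unstimulated KO and HZ, 5 in stimulated KO against WT and 4 between stimulated KO and HZ. In the same comparisons 5515, 4927 and 3040 of all 12208 genes passed. limma on FPKM gave 2 members in unstimulated KO against WT with either pseudocount and without the filter, and 1 in unstimulated HZ against WT on log2(FPKM + 1). Calls over all genes fell as well. In KO against WT they went from 917 in edgeR to 310 on log2(FPKM + 1), 505 on log2(FPKM + 0.1) and 312 without the filter. In HZ against WT they went from 1117 in edgeR to 414 on log2(FPKM + 1). The filter used with limma left out Tnfrsf9 and Tnfrsf11b. The HZ interaction gave 3 members under library totals and 2 in limma with either pseudocount and without the filter. By edgeR with TMM it passed for 4705 of all 12208 genes, and the all-gene counts under those other settings are not given here. With a library left out, 0 to 1 members passed between unstimulated KO and HZ, and 3 to 5 in the HZ interaction.

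Changes of sign were all in values that had not passed. Tnfrsf11b in the HZ response was -0.21 under library totals and -0.0568 in limma without the filter, and ran from -0.63 to 0.72 with a library left out. Stimulated Tnf in HZ against WT was 0.0182 under library totals, 0.0181 in limma under each of its 3 settings, and -0.0411 to 0.0275 with a library left out. Leaving out a library gave Tnfsf9 from -0.17 to 0.33 in unstimulated KO against WT, -0.0922 to 0.243 in HZ against WT, -0.25 to 0.26 in KO against HZ and -0.307 to 0.0280 in the HZ interaction. It gave Tnfrsf11b from -0.25 to 0.89 in unstimulated KO against HZ, and, in the KO interaction, Tnf from -0.0223 to 0.251 and Tnfrsf1b from -0.0114 to 0.347. Tnfrsf9 in the KO interaction was -0.15 in limma without the filter. The cause of these changes was not tested.

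Same-numbered replicates did not deviate together. The correlation of their deviations over 9858 genes was -0.0358 to 0.0629 over the 15 pairs of groups, so the numbers were not taken to pair the samples. A replicate block gave 822 genes in the WT response beside 826 without it, and changed no call of a member. Counts under about 100 limit Tnfrsf9 and Tnfrsf11b, and Tnfrsf1a was too low to test. Such counts also limit the folds of Tnf in HZ, from 69 and 97 unstimulated counts, and of Tnfsf9, from 54 to 82.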
